A study of Arabidopsis thaliana with 32 samples.

Results

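FWA (AT4G25530), SDC (AT2G17690), HDG3 (AT2G32370), HDG8 (AT3G03260), HDG9 (AT5G17320), MEA (AT1G02580), FIS2 (AT2G35670) and PHE1 (AT1G65330) are 8 Arabidopsis thaliana genes known for parental imprinting in the seed or for silencing by DNA methylation in the plant body. They were chosen by their locus identifiers as 8 of the 30385 loci on an expression array, and all 8 were found. Whole seedlings of the sahh1 mutant and of Columbia wild type were compared at ages of 1, 4, 7 and 10 days, with 4 single-colour Cy3 arrays in each of the 8 groups and 32 arrays in all. The labels name neither the sahh1 allele, nor the growth conditions, nor whether arrays of a group came from separate cultures. Within all groups, array 1 resembled array 2 most and array 3 resembled array 4 most, and the mean of such a pair is called a sample here (n = 2 per group). P-values therefore measure only the spread between these samples, which may be technical.

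SAHH1 encodes S-adenosylhomocysteine hydrolase, which removes the by-product of methylation reactions that would otherwise inhibit methyltransferases. Methyl groups on cytosines keep transposons and some genes next to repeats silent in vegetative tissue, and imprinted genes are those whose maternal and paternal copies differ in activity, mostly in the endosperm that nourishes the embryo. FWA and SDC are the textbook cases of plant genes silenced through methylated repeats near their promoters: heritable loss of methylation at FWA gives late flowering, and SDC expression in leaves gives curled leaves.

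FWA was higher in sahh1 at days 4, 7 and 10, and SDC was higher at day 4 and on the mean of the ages. At day 7 FWA was 6.93-fold higher in sahh1, and at day 4 SDC was 9.49-fold higher. No difference was called at any age for the 3 HD-ZIP IV genes HDG3, HDG8 and HDG9, for the Polycomb genes MEA and FIS2, or for the MADS-box gene PHE1. A difference was called where the adjusted p from limma, with Benjamini-Hochberg adjustment over all loci, was under 0.05. By that rule 0 of the 8 genes were called at day 1, against 2.46% of all loci, and none of the 8 had an unadjusted p under 0.05. At day 4, 2 of the 8 were called, against 1.61% of all loci. At day 7, 1 was called, against 0.629% of all loci, and at day 10, 1 was called, against 1.02%. On the mean of the ages 2 were called, against 3.48% of all loci. With 2 samples against 2 an exact permutation test cannot give a p below 0.333, so the calls rest on the spread shared over loci and groups in limma.

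**Figure D1:**
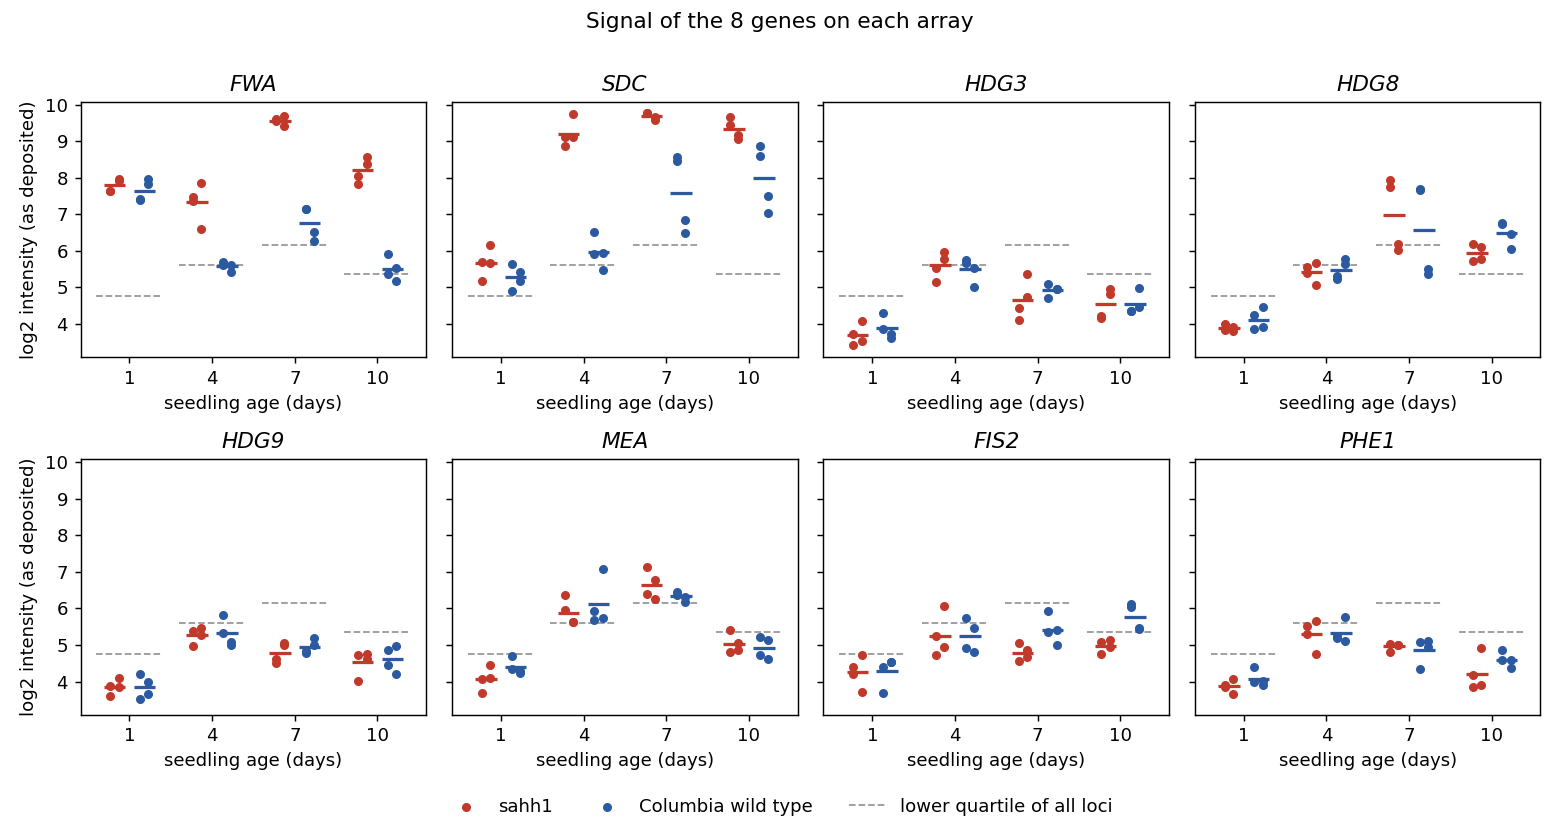
Log2 intensity as deposited (vertical axis) of the 8 genes on each of the 32 arrays by seedling age in days (horizontal axis), with sahh1 in red to the left of wild type in blue, a bar at each group mean and a dashed line at the lower quartile of all loci. Only FWA and SDC, each at days 4, 7 and 10, have all sahh1 arrays above all wild-type arrays. The SDC differences of days 7 and 10 were not called, and the share of all loci so separated is not given here.

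The arrays give 1 linear intensity per locus, so levels of different genes cannot be set against each other. The median intensity of an array was 995 to 1054 in day 1 seedlings, 449 to 493 in day 4 seedlings, 1793 to 1945 in day 7 seedlings and 956 to 982 in day 10 seedlings, so intensities as deposited were compared between genotypes within an age. SAHH1 itself was lower by a log2 difference of -1.26 ± 0.23 (SE, limma adjusted p = 0.0117) at day 1 and -1.53 ± 0.23 (adjusted p = 0.0144) at day 4. The differences of -0.48 at day 7 (adjusted p = 0.723) and -0.77 at day 10 (adjusted p = 0.276) were not called. Leaving out any 1 of the 4 samples of day 1 ended the SAHH1 call at that age (adjusted p 0.0634 to 0.108), and leaving out wild-type sample 1 or 2 ended that of day 4 (adjusted p 0.071 and 0.106), as did array weights (0.103) and groups fitted alone (0.542). The shoot markers RBCS1A and LHCB1.3 were bright in all groups, while LHCB1.1 averaged a log2 level of 3.34 in sahh1 and 3.39 in wild type at day 1. The 2 sahh1 samples of day 4 stood furthest apart of all groups, with an SD of 0.686 for their log2 difference over the brighter loci, against 0.160 to 0.313 in the other 7 groups.

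FWA encodes an HD-ZIP IV homeodomain protein whose ectopic activity delays flowering by interfering with FT. At day 1 its intensity was 199.86, 200.05, 249.51 and 239.24 on the sahh1 arrays, against 166.75, 172.53, 247.79 and 227.49 on the wild-type arrays. The groups overlapped, and the log2 difference was 0.14 ± 0.27 (SE). The 95% interval of that fold, 0.735 to 1.65, leaves out the folds measured at the later ages.

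At day 4 FWA intensity was 179.11, 166.23, 231.53 and 96.94 on the sahh1 arrays, against 49.39, 52.00, 42.79 and 48.54 on the wild-type arrays. Every sahh1 array lay above every wild-type array, although the fourth sahh1 array stood apart from its partner, at 96.94 against 231.53. The log2 difference was 1.74 ± 0.27, a fold of 3.35 with a 95% interval of 2.23 to 5.01 (limma adjusted p = 0.0144). With wild-type sample 1 left out the adjusted p was 0.0662 and with sample 2 left out 0.109, so the call did not hold, nor did it with groups fitted alone (0.278) or array weights (0.658), and quantile normalization over all arrays gave a larger difference, 2.88. The wild-type samples, at 45.6 and 50.7, lay close to the lower quartile of all loci (47.6 to 51.9), so the size of this fold is uncertain.

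At day 7 FWA intensity was 745.24, 785.58, 680.55 and 819.47 on the sahh1 arrays, against 141.22, 141.92, 77.82 and 90.64 on the wild-type arrays. The lowest sahh1 array was far above the highest wild-type array, and wild-type sample 2 was the lower of its pair. At 84.0 that sample lay close to the lower quartile of all loci (64.3 to 74.2), so the size of the day 7 fold is uncertain. The log2 difference was 2.79 ± 0.27, a fold of 6.93 with a 95% interval of 4.63 to 10.4 (limma adjusted p = 2.62e-04). It was called without any 1 of the 16 samples, but not with the groups of that age fitted alone (adjusted p = 0.156).

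At day 10 FWA intensity was 264.38, 225.77, 329.88 and 378.48 on the sahh1 arrays, against 41.00, 60.30, 36.21 and 45.91 on the wild-type arrays. The groups again did not overlap, and the log2 difference of 2.71 ± 0.27 was a fold of 6.53 with a 95% interval of 4.36 to 9.77 (limma adjusted p = 2.71e-04). Of all single-age differences of the 8 genes, this was the one called under each of its 26 alternative settings, but its fold is uncertain in size, since wild-type samples at 49.7 and 40.8 lay close to the lower quartile of all loci (40.3 to 43.8). On the mean of the 4 ages FWA was higher in sahh1 by a log2 difference of 1.85 ± 0.13, a fold of 3.59 (adjusted p = 6.89e-06). In bulk seedlings more cells with FWA RNA and more RNA per cell cannot be told apart.

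**Figure D2:**
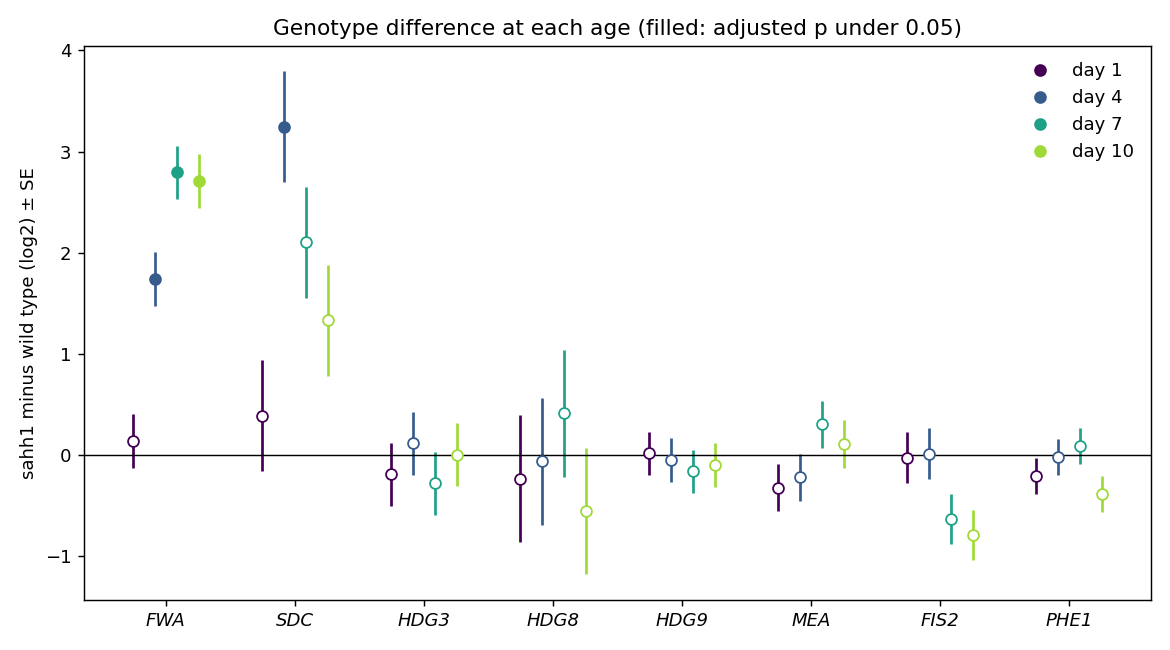
Log2 difference, sahh1 minus wild type (vertical axis), with its standard error (n = 2 samples per group) for each of the 8 genes (horizontal axis) at days 1, 4, 7 and 10, filled where the limma adjusted p was under 0.05. The filled points are FWA at days 4, 7 and 10 (1.74, 2.79 and 2.71) and SDC at day 4 (3.25).

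SDC encodes an F-box protein whose promoter repeats are methylated redundantly by the non-CG methyltransferases DRM2 and CMT3. At day 1 its intensity was 51.94, 35.89, 71.91 and 50.61 on the sahh1 arrays, against 49.82, 29.91, 42.46 and 36.34 on the wild-type arrays. The arrays overlapped, and the log2 difference of 0.39 ± 0.55 was not called (limma adjusted p = 1.00). At day 4 the sahh1 arrays gave 550.42, 471.28, 850.95 and 556.20, against 91.64, 60.78, 61.50 and 44.12 on the wild-type arrays. The lowest sahh1 array was far above the highest wild-type array. The log2 difference was 3.25 ± 0.55, a fold of 9.49 with a 95% interval of 4.12 to 21.9 (limma adjusted p = 0.0210). This call also ended with either wild-type sample left out, the adjusted p being 0.0821 without sample 1 and 0.155 without sample 2, and with groups fitted alone (0.106) or array weights (0.692). Quantile normalization gave a larger difference, 3.88. The wild-type samples, at 74.6 and 52.1, lay above the lower quartile of all loci (47.6 to 51.9), sample 2 only just, so the size of this fold is uncertain.

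At day 7 SDC intensity was 871.13, 866.30, 765.36 and 805.46 on the sahh1 arrays, against 380.43, 350.45, 114.99 and 89.57 on the wild-type arrays. The groups did not overlap, but the 2 wild-type samples were far apart from each other, sample 1 being the higher. The log2 difference of 2.10 ± 0.55 was not called (limma adjusted p = 0.204), and within sample numbers it was 1.25 for sample 1 and 2.95 for sample 2. Without wild-type sample 1 it was 3.02 and was called (adjusted p = 0.0263), and with sample 2 left out instead it was 1.18 and was not.

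At day 10 SDC intensity was 693.94, 815.86, 576.51 and 531.27 on the sahh1 arrays, against 384.81, 468.83, 131.65 and 181.43 on the wild-type arrays. Wild-type sample 1 was again above wild-type sample 2, and all sahh1 arrays were above both. The log2 difference was 1.33 ± 0.55 (limma adjusted p = 0.603). With wild-type sample 1 left out it was 2.06, and with sample 2 left out 0.60, not called in either case. On the mean of the 4 ages SDC was higher in sahh1 by a log2 difference of 1.77 ± 0.27, a fold of 3.41 (adjusted p = 0.00293), and without the day 4 groups by 1.27, which was not called (adjusted p = 0.118). That last setting was added after the data were seen.

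Levels across age were compared after quantile normalization over all 32 arrays, on the log2 scale, since the medians moved with age. The log2 level of wild-type FWA averaged 7.80 at day 1 and 5.44 at day 4, a change of -2.36 ± 0.26 (limma adjusted p = 2.33e-05). In sahh1 it averaged 7.90 at day 1 and 8.32 at day 4, a change of 0.42 ± 0.26 that was not called (adjusted p = 0.199). As deposited, without quantile normalization, the change in wild type was -2.06 and that in sahh1 was -0.46. FWA was therefore lower at day 4 than at day 1 in wild type under both scalings, and the sign of its change in sahh1 depended on the scaling. The genotype difference in FWA grew between day 1 and day 4 by 2.78 ± 0.36 (limma adjusted p = 0.00801), which makes FWA 1 of the 8 genes called in that test, against 1.1% of all loci. On values as deposited that growth was 1.60 and was not called (adjusted p = 0.0639). FWA was also the 1 of the 8 genes called in an F test of the genotype difference over the ages (F = 25.03, limma adjusted p = 0.0177), against 0.615% of all loci, and leaving out any 1 of the 4 day 1 samples ended that call (adjusted p 0.0602 to 0.108).

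In the order of log2 levels of FWA, the wild-type groups of days 4, 10 and 7 came lowest, at 5.44, 5.60 and 5.95, each overlapping the next. A gap followed, and then wild type at day 1 (7.80) and sahh1 at days 1, 10 and 4 (7.90, 8.16 and 8.32), whose neighbours overlapped. The sahh1 group of day 7 was highest at 8.51, just above the samples of day 4. The order and the gap depended on the scaling, since as deposited FWA in sahh1 changed by -0.46 from day 1 to day 4. The as-deposited sahh1 samples of day 4, at 7.43 and 7.23, lay below all other sahh1 samples. They were close to wild-type day 7 sample 1, at 7.15.

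The log2 level of SDC in sahh1 averaged 6.13 at day 1 and 10.2 at day 4, a change of 4.10 ± 0.56 (limma adjusted p = 1.24e-04). In wild type it averaged 5.97 at day 1 and 6.35 at day 4, a change of 0.37 ± 0.56 (adjusted p = 0.610). The growth of the genotype difference between these ages, 3.72 ± 0.79, was not called (adjusted p = 0.0572). It was called without wild-type day 4 sample 1 (adjusted p = 0.0383), without sahh1 day 4 sample 1 (adjusted p = 0.0234) or 2 (adjusted p = 0.0415), and without either wild-type day 7 sample (adjusted p = 0.0433). Wild-type SDC averaged 6.68 at day 7 and 7.94 at day 10, and that change of 1.26 was not called (adjusted p = 0.293). In order, SDC levels overlapped between neighbours up to sahh1 day 7 (8.64), with sahh1 day 10 (9.32) and sahh1 day 4 (10.2) above. That order depended on the scaling, since as deposited SDC in sahh1 was 0.48 higher at day 7 than at day 4.

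Over all 8 genes, 3 successive steps of age and both genotypes, 4 of 48 changes were called. They were FWA in wild type (lower at day 4 than at day 1), SDC in sahh1 (higher) and MEA in both genotypes (higher). The share of all loci called was 49.1% in sahh1 and 51.8% in wild type between days 1 and 4, so calls at that step were common. It was 11.6% in sahh1 and 22.3% in wild type between days 4 and 7, and 0.467% in sahh1 and 0.293% in wild type between days 7 and 10, with 0 of the 8 genes called in limma at these later steps.

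**Figure D3:**
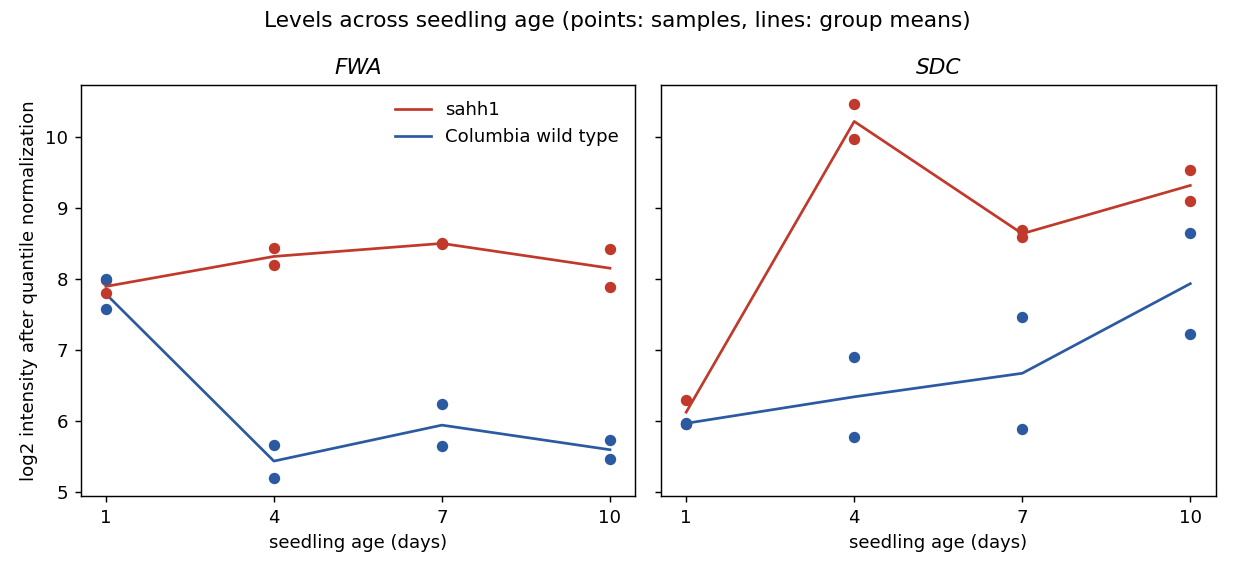
Log2 intensity after quantile normalization over 32 arrays (vertical axis) of FWA and SDC by seedling age in days (horizontal axis), with points for the 2 samples of a group and lines through the group means. Wild-type FWA drops between days 1 and 4. On this scaling sahh1 FWA averages 7.90 to 8.51 and sahh1 SDC is highest at day 4. As deposited, sahh1 SDC was 0.48 higher at day 7 than at day 4 on the log2 scale, a change that was not called.

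Endosperm and seed coat clinging to the seedling are tissues that such an age series can hold, and FWA is active in endosperm. The summed intensity of 7 markers of these tissues was 123594 to 127303 in sahh1 and 103857 to 111060 in wild type at day 1, and 1669 to 1684 in sahh1 and 1265 to 1593 in wild type at day 4. EPR1, EXPA2 and MAN7, genes of the germinating endosperm, made up that drop: EPR1 changed by a log2 of -7.20 in sahh1 and -7.64 in wild type between these ages (limma adjusted p = 2.42e-06 in sahh1 and 1.48e-06 in wild type). The developmental endosperm markers ZOU, ALE1, IKU2 and MINI3 were dim at day 1 in both genotypes, with log2 levels of 3.86 to 4.67 in sahh1 and 4.28 to 4.50 in wild type. In limma 0 of the 7 markers differed between genotypes at any age, with 7 of 28 tests at an unadjusted p under 0.05. The part of endosperm remains in the day 1 level of FWA was not tested.

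Root markers differed between genotypes after day 1, with calls at days 4 and 10. At day 1 the 3 markers below summed to 8788 to 9364 in sahh1 and 8993 to 9686 in wild type, with 0 called. The summed intensity of EXPA7, RHS14 and PIP2;4 at day 4 was 929 to 967 in sahh1 and 2789 to 3232 in wild type, at day 7 3220 to 3486 in sahh1 and 4425 to 4763 in wild type, and at day 10 766 to 1153 in sahh1 and 1665 to 1754 in wild type. At day 4 all 3 were called lower, by log2 differences of -1.44, -2.07 and -1.84. With each of the 16 samples left out in turn the day 4 call held in 7 fits for EXPA7, 14 for RHS14 and 16 for PIP2;4, and for none of them with array weights or with the groups of that age fitted alone. At day 10 EXPA7 was called, with a difference of -1.95 (limma adjusted p = 0.00444), but not without sahh1 sample 2 (0.0617) or wild-type sample 1 (0.0533), and the RHS14 difference of -1.58 was not called (adjusted p = 0.0864). PIP2;4 differed by -0.44 at day 10 and was not called. At day 7 the differences were -0.52, -0.82 and -0.42 for EXPA7, RHS14 and PIP2;4, none called. The part of tissue composition in the differences of FWA and SDC was not tested.

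HDG3, HDG8 and HDG9 belong to the same HD-ZIP IV family as FWA and are imprinted in the endosperm. HDG3 intensities lay between 11.9 and 58.6 over the 16 samples, and below the lower quartile of all loci in 14 of them. Its log2 differences were -0.19 ± 0.31, 0.11 ± 0.31, -0.28 ± 0.31 and 0.00 ± 0.31 at days 1, 4, 7 and 10, and the groups overlapped at each age. HDG9 intensities lay between 13.4 and 47.8, below that quartile in 15 of 16 samples, with log2 differences of 0.02, -0.05, -0.16 and -0.10, each ± 0.21. At these levels a change between genotypes could go undetected.

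At day 7 HDG8 intensity was 214.24, 243.25, 65.31 and 73.05 on the sahh1 arrays, against 208.00, 204.58, 45.00 and 41.52 on the wild-type arrays. The spread was between sample numbers rather than genotypes: sample 1 was high and sample 2 low in both. The log2 difference was 0.41 ± 0.63, and within sample numbers it was 0.15 and 0.68. Over loci brighter than the median, which leave out HDG8, the deviations of same-numbered samples from their group means correlated between genotypes at 0.753 at day 7. At days 1, 4 and 10 the correlations were -0.483, 0.185 and -0.168. At day 10 HDG8 intensity was 61.8 and 61.3 in the sahh1 samples, against 107 and 76.1 in the wild-type samples, with a log2 difference of -0.55 ± 0.63 that was not called. The differences of -0.23 ± 0.63 at day 1 and -0.06 ± 0.63 at day 4 were not called either. HDG8 was below the lower quartile of all loci in 9 of 16 samples.

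MEA, a SET-domain H3K27 methyltransferase, and FIS2, a zinc-finger protein, form the Polycomb repressive complex of the developing endosperm, and both are maternally expressed there. MEA sample intensities lay between 14.7 and 109, below the lower quartile of all loci in 9 of 16 samples. Its log2 differences were -0.32 ± 0.23, -0.22 ± 0.23, 0.30 ± 0.23 and 0.11 ± 0.23 at days 1, 4, 7 and 10, with overlapping arrays at each age. After quantile normalization MEA was higher at day 4 than at day 1, by a log2 change of 1.06 ± 0.36 in sahh1 (limma adjusted p = 0.0294) and 1.41 ± 0.36 in wild type (adjusted p = 0.00653). The arrays of wild-type day 4 sample 2 stood apart, at intensities of 53.48 and 134.7. In sahh1 the change was 0.50 without day 4 sample 1 (adjusted p = 0.208) and 0.84 without day 1 sample 1 (adjusted p = 0.168), and in wild type it was 0.95 without day 4 sample 2 (adjusted p = 0.0642). The difference between genotypes in this change was -0.35 ± 0.50 (adjusted p = 0.827).

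FIS2 did not pass the test at any age. At day 10 its intensity was 26.94 to 35.28 on the 4 sahh1 arrays, against 43.63 to 69.05 on the 4 wild-type arrays. The groups did not overlap, and all sahh1 arrays were the lower, but the share of all loci so separated is not given here. The log2 difference was -0.79 ± 0.25, with a 95% interval of -1.34 to -0.24, and was not called over all loci (limma adjusted p = 0.311). At day 7 it was -0.63 ± 0.25 (adjusted p = 0.541), and at days 1 and 4 it was -0.03 and 0.02. FIS2 was below the lower quartile of all loci in 14 of 16 samples.

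PHE1, a paternally expressed type I MADS-box gene that the FIS2 and MEA complex represses, was below that quartile in all 16 samples, with intensities between 14.5 and 43.3. Its log2 differences were -0.21, -0.02, 0.09 and -0.39 at days 1, 4, 7 and 10, each ± 0.18. In 24 tests of HDG3, HDG8, HDG9, MEA, FIS2 and PHE1 over the 4 ages, 0 were called in limma and 2 had an unadjusted p under 0.05, both of FIS2.

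Around the 8 genes, 16 flanking genes were read from the reference annotation, and 0 were called at any age in limma (3 of 64 tests at an unadjusted p under 0.05). Next to FWA, SLK1 differed by -0.06, 0.13, -0.03 and 0.15 on the log2 scale at days 1, 4, 7 and 10, and MSH3, a DNA mismatch repair gene, by 0.01, 0.10, 0.37 and 0.06. Next to SDC, AT2G17680 differed by 0.14, 0.12, 0.21 and 0.05, and AT2G17695 by -0.25, 0.44, -0.12 and -0.21.

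Of 15 other genes imprinted in the seed, 1 was called higher and 1 lower at day 1, 0 at day 4, and 1 higher at each of days 7 and 10. The higher one was MPC, a maternally expressed gene, with log2 differences of 1.06 ± 0.21, 0.87 ± 0.21, 2.33 ± 0.21 and 1.28 ± 0.21 at days 1, 4, 7 and 10 (limma adjusted p = 0.0215, 0.0779, 2.20e-04 and 0.0136). The day 1 call of MPC was lost without wild-type sample 1, where the difference was 0.74, or without sahh1 sample 1 or 2 (adjusted p 0.0961 to 0.260), or with quantile normalization (0.137), and the day 10 call without wild-type sample 1 or 2 or sahh1 sample 1 (adjusted p 0.0758 to 0.145). The lower one was JMJ15, a histone demethylase gene, by -1.06 ± 0.18 at day 1 (adjusted p = 0.00675), a call that ended with sample 2 of sahh1 (adjusted p = 0.0879) or of wild type (adjusted p = 0.0864) left out, with the sample as a random block (0.133) and with quantile normalization (0.0715). With the groups of an age fitted alone, MPC was not called at days 1, 7 or 10 (adjusted p 0.0617 to 0.188), nor JMJ15 at day 1 (0.129). The median difference of the list at day 7 was 0.11, against 0.01 over all loci.

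Of 7 other loci listed as silenced by methylation, 3 were called higher at day 1, 1 at day 4, 3 at day 7 and 2 at day 10, and none lower. BNS, EPF2 and AT5G17125 of that list were not called at any age. Whether each listed locus is silenced in wild-type seedlings was not tested. QQS, an orphan gene that affects starch content, was higher at all 4 ages, by log2 differences of 2.28 ± 0.37, 3.74 ± 0.37, 3.11 ± 0.37 and 3.31 ± 0.37. The locus AT4G08680, a pseudogene in the reference, was higher by 2.93 at day 1, 2.66 at day 7 and 3.76 at day 10, each ± 0.41, and its day 4 difference of 1.44 was not called (adjusted p = 0.118). AT2G12210, also a pseudogene there, was higher by 1.59 ± 0.18 at day 1. RMG1, a disease resistance gene, was higher by 1.16 ± 0.21 at day 7 (limma adjusted p = 0.0299), a call that held in 6 of the 16 fits that each left out 1 sample, with differences of 1.00 to 1.33. It was also lost under quantile normalization, where the difference was 0.85 (adjusted p = 1.00), with another variance prior (0.064) and with the sample number as a block (0.052). The day 1 call of QQS ended with sample 2 of sahh1 (adjusted p = 0.0577) or of wild type (adjusted p = 0.0616) left out. The day 7 call of AT4G08680 ended with sample 2 of sahh1 (2.01, adjusted p = 0.0618) or sample 1 of wild type (2.30, adjusted p = 0.0786) left out, and with quantile normalization (0.0729). With the groups of an age fitted alone, the calls of QQS at days 1 and 7 (adjusted p 0.0781 and 0.159), AT4G08680 at day 7 (0.545), AT2G12210 at day 1 (0.0534) and RMG1 at day 7 (0.350) ended, and array weights ended that of QQS at day 4 (0.177). Unlike FWA and SDC, QQS and AT4G08680 were called at day 1, and whether these genes differ from FWA and SDC in that respect was not tested. The list's median differences were 0.08, 0.59, 0.39 and 0.30 at days 1, 4, 7 and 10, against -0.02, 0.02, 0.01 and -0.01 over all loci.

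Among the relatives and partners of the 8 genes, 0 were called at any age in limma. This held for 12 other HD-ZIP IV genes (3 of 48 tests at an unadjusted p under 0.05), 7 other type I MADS genes (0 of 28), and 7 subunits of Polycomb complexes or the demethylase DME (1 of 28). It also held for 6 genes of the floral transition (2 of 24), among them FT, whose protein FWA is known to impair. FT differed by -0.49 ± 0.38, -0.18 ± 0.38, -0.59 ± 0.38 and -0.32 ± 0.38 on the log2 scale at days 1, 4, 7 and 10.

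**Figure D4:**
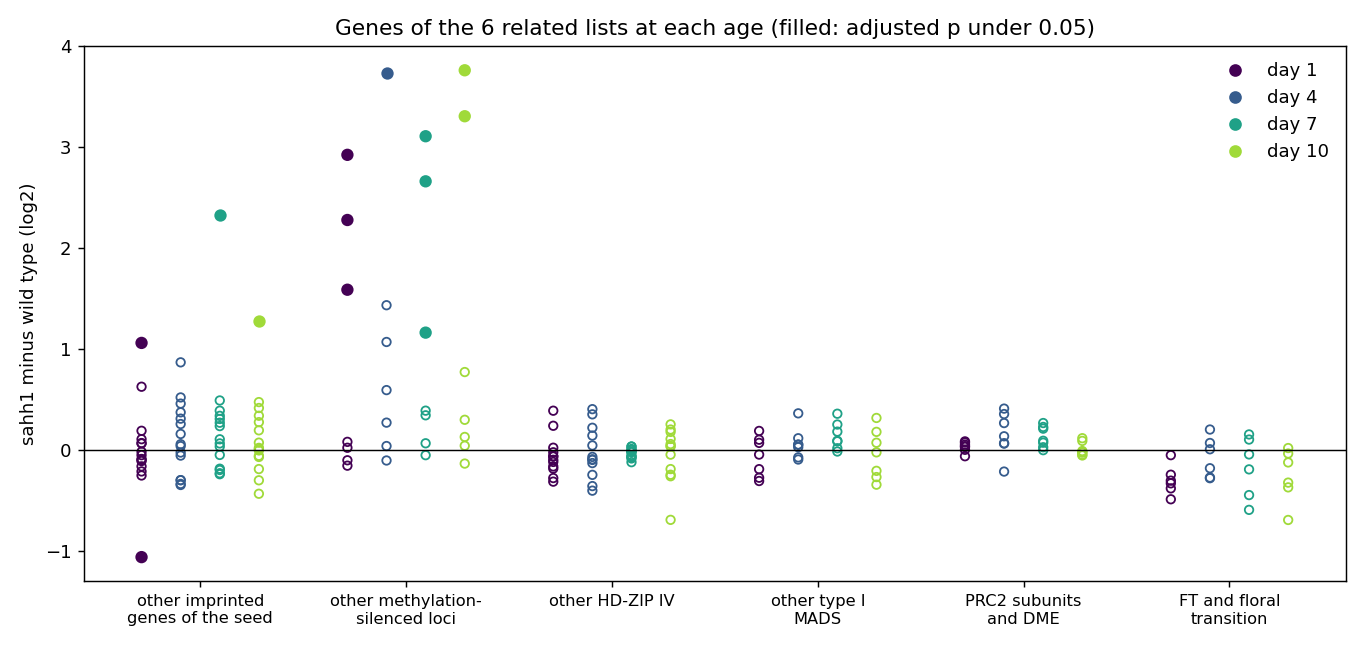
Log2 difference, sahh1 minus wild type (vertical axis), for each gene of 6 related lists (horizontal axis) at days 1, 4, 7 and 10, filled where the limma adjusted p was under 0.05. Filled points lie in the lists of other imprinted genes (MPC and JMJ15) and other methylation-silenced loci, and the other 4 lists have none.

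The loci most like FWA and SDC were taken as the 5 with the highest Pearson correlation over the 16 samples of log2 level minus the wild-type mean of the same age, among 13142 loci that spanned at least 1 on that scale. These points share arrays and wild-type means, so the correlations are descriptions. The choice by correlation favours loci with a like course of the genotype difference over the ages, so such likeness is not a separate result. Most like FWA were the pseudogenes AT4G04293 (r = 0.969) and AT2G31080 (r = 0.953) and the protein-coding loci AT5G35480 (r = 0.952), AT4G18150 (r = 0.951) and AT2G05915 (r = 0.950). Like FWA, AT4G04293 differed little at day 1 (0.10) and by 2.80, 4.31 and 3.94 at days 4, 7 and 10 on the log2 scale. AT2G05915 differed by 2.04 at day 1 and by 6.18 at day 7, a fold of 72.6.

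Most like SDC were AT4G05095 (r = 0.955), GIS (r = 0.940), AT3G01345 (r = 0.934), AT1G18830 (r = 0.923) and AT2G40960 (r = 0.922). GIS, a zinc-finger regulator of trichome formation, differed by 0.10, 1.28, 0.80 and 0.35 at days 1, 4, 7 and 10 on the log2 scale. AT4G05095 differed by 0.44, 2.44, 2.27 and 1.16. In both loci, as in SDC, the largest of the 4 differences was that of day 4, a likeness that the choice by correlation favours.

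**Figure D5:**
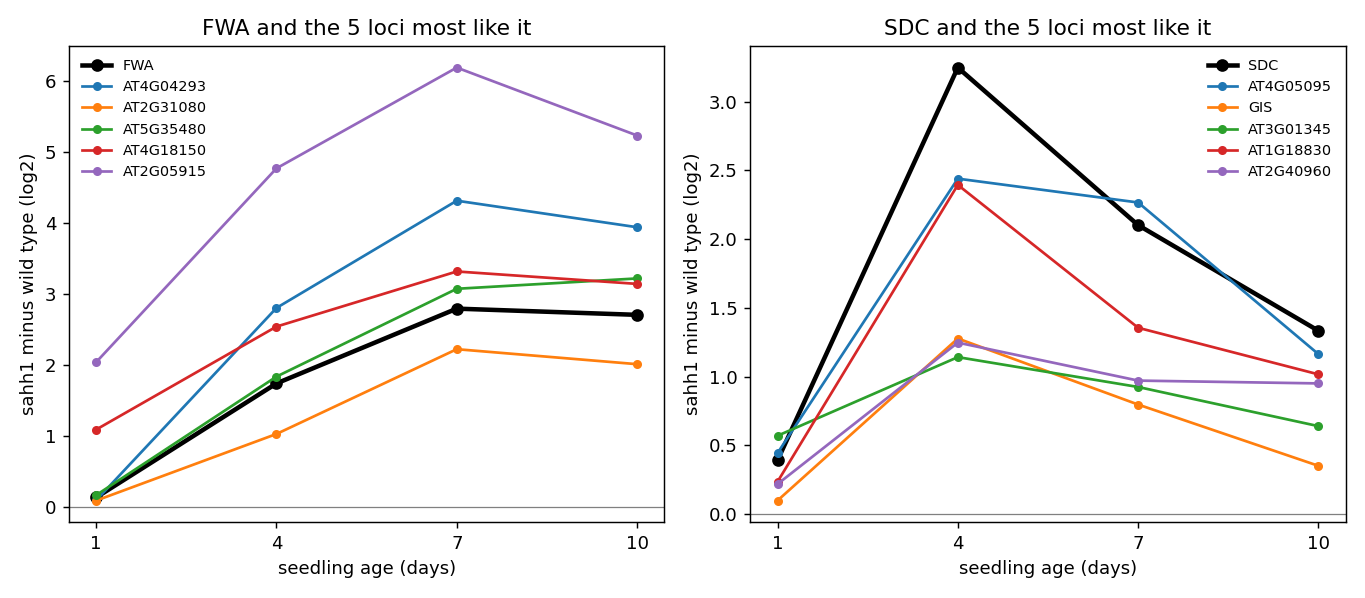
Log2 difference, sahh1 minus wild type (vertical axis), by seedling age in days (horizontal axis) for FWA and the 5 loci most like it and for SDC and the 5 loci most like it, as lines through the means of 2 samples per group. The FWA lines reach their highest values at day 7 or 10 (FWA 2.79 at day 7), and the SDC lines at day 4 (SDC 3.25). The loci were chosen by correlation with FWA or SDC, which favours a like course.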

How the data were processed

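RNA of whole seedlings was hybridised to 1-colour NimbleGen arrays, per the labels. In the deposited table each array has a linear intensity for each locus, normalized by the authors with RMA (no version given), per the submitters' processing notes. Probe-level data, the genome build and the array design were not used here. Loci were named through a RefSeq table of the TAIR10.1 annotation, in which 29996 of 30385 were found, and no sequence or coordinate is reported.

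Log2 was taken, arrays 1 and 2 and arrays 3 and 4 of a group were averaged, and the 16 samples entered limma (version 3.58.1, under R version 4.3.3), each group with its own mean and 8 residual degrees of freedom. Genotype contrasts used values as deposited. Contrasts between ages and of the genotype difference over ages followed quantile normalization over all arrays. Benjamini-Hochberg adjustment ran over the 30385 loci of a contrast. Of the tests, the genotype comparison at day 1 was checked on simulated data, and the contrasts between ages and the F test were not. In that check 4 of 50 log2 changes of 0.5 were called, and 23 of 50 changes of 1. For changes of 2 and 4 it was 47 of 50 and 48 of 50, with 7 false calls among the unchanged loci.

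The 8 genes, the 6 lists, the markers and the tests were chosen with earlier results of these data known. All 8 genes are named at every age; of a list, the genes called at any age; of the flanking genes, those beside a called gene; and the 5 loci most like FWA and SDC.

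Sample numbers were not taken as pairs across genotypes, since the deviations of same-numbered samples correlated above 0.1 only at days 4 and 7. The correlation over the brighter loci was 0.753 at day 7. These shared deviations of day 7 were left in the main test. Alternatives were 32 arrays as replicates, a random or fixed block, other normalizations, a filter on the dimmest 25% of loci, groups fitted alone, array weights, another variance prior and each sample left out.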

Additional observations from a re-analysis of the deposited data

Results flagged for a closer look

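A difference between ages was called for the genotype difference in FWA after quantile normalization. Between day 1 and day 4 it grew by 2.78 on the log2 scale (limma adjusted p = 0.00801), against 1.60 on values as deposited (adjusted p = 0.0639, not called). The F test over the 4 ages gave 25.03 (adjusted p = 0.0177) and was lost without any 1 of the 4 day 1 samples (adjusted p 0.0602 to 0.108).

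MEA was higher in both sahh1 samples than in both wild-type samples at day 7, by 0.30 on the log2 scale. It was lower in both at day 1, where the difference was -0.32. The nearest day 1 samples were almost level, at intensities of 19.28 in sahh1 and 19.29 in wild type. All day 1 samples were below the lower quartile of all loci. Arrays of the genotypes overlapped at both ages, and the share of all loci with samples so separated is not given here. The difference between these ages was not tested, and neither genotype difference was called.

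Array 2 of sahh1 at day 7 gave an intensity of 28.18 for PHE1, apart from the other 3 arrays of its group. This was the 1 array that stood apart among 64 groups of 4 arrays tested over the 8 genes, where chance alone sets apart about 1 group in 20.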

How the results depend on the processing

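FWA at day 10 and on the mean of the ages was called under each alternative run, and FWA at day 7 under all but groups fitted alone (adjusted p = 0.156). At day 4 the number of the 8 genes called was 0 with groups fitted alone or with array weights, and 0 to 2 with each sample left out. At day 7 it was 2 with 32 arrays or the random block, 0 with groups alone, and 1 to 2 with each sample left out. At day 10 it was 2 with 32 arrays, and on the mean of the ages 1 without the day 4 groups. The F test called 2 with 32 arrays and 0 to 1 with each sample left out. Between successive ages 10 changes were called with 32 arrays and 25 on values as deposited, against 4. Array medians differ between ages on values as deposited, and the share of all loci called under these settings is not given here. The 10 and 25 are therefore no result about the 8 genes in particular. With the sample number as a replicate block the numbers called were as reported, and the growth of the SDC difference between days 1 and 4 was called (adjusted p = 0.0496). The causes were not tested.

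Signs turned for HDG3 at day 10 with cyclic loess (-0.011), for the MEA mean without the day 4 groups (0.030), and on values as deposited for FWA in sahh1 between days 1 and 4 (-0.46) and SDC in sahh1 between days 4 and 7 (0.48). With each sample left out, uncalled log2 differences changed sign within these ranges: FWA day 1 -0.10 to 0.38; PHE1 day 4 -0.13 to 0.089 and day 7 -0.068 to 0.24; MEA day 4 -0.52 to 0.076 and mean -0.11 to 0.042; FIS2 day 1 -0.27 to 0.22 and day 4 -0.24 to 0.27. For HDG3 they were, for days 1, 4, 7 and 10 and the mean, -0.39 to 0.013, -0.15 to 0.38, -0.67 to 0.11, -0.34 to 0.35 and -0.18 to 0.0095. For HDG8 they were, for days 4 and 7 and the mean, -0.27 to 0.15, -0.72 to 1.54 and -0.39 to 0.17, and for HDG9 -0.10 to 0.13, -0.31 to 0.21, -0.39 to 0.071 and -0.26 to 0.061 at days 1, 4, 7 and 10. The change of SDC in wild type between days 1 and 4 was -0.19 to 0.94. With n = 2 and 6 genes near the dim end of the arrays, log2 differences of 1 or less could go undetected and the size of a fold is uncertain. Wild-type FWA at days 4 and 10, wild-type FWA sample 2 at day 7 and wild-type SDC sample 2 at day 4 were near that end too.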
